A study of Mus musculus with 4 samples.

Results

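The epidermal differentiation complex is a cluster of genes on mouse chromosome 3 that are switched on as keratinocytes leave the basal layer and form the cornified envelope. It was taken here as the window from 90400000 to 93600000 on chromosome 3 (mm10), and its members were the 74 protein-coding genes lying wholly inside it, of 21887 protein-coding genes in the annotation. The window held 28 of the 10616 peaks of the WT list and 45 of the 14593 peaks of the alphaKO list, taken by the position of the summit. One further gene, Ints3, crosses the lower edge and was not counted as a member.

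The lists come from chromatin immunoprecipitation with sequencing (ChIP-seq) of p63, with the antibody EPR570, in epidermis of dorsal skin at postnatal day 0. The genotypes were wild type (WT) and p63 alphaKO (alphaKO), with 1 ChIP library each, and the labels give no strain, sex or number of animals and do not describe the allele further. Isoforms of p63 and AEC syndrome, in which dominant p63 mutations damage the skin, are named in the series title. In whole epidermis, fewer cells with p63 at a site and less p63 per cell there cannot be told apart. With 1 library per genotype no difference between genotypes was tested. Fold enrichment is the authors' value for a peak against the peak caller's local background. It describes the peak within its own list, and values of both lists set side by side are not a measure of change. Peaks do not measure transcripts, so neither the genotype nor the presence of differentiated cells could be checked from them.

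The complex is built from families of related genes. At either end lie S100 genes, which encode small calcium-binding proteins. Between them lie the genes of the cornified envelope: loricrin, involucrin, the small proline-rich (Sprr) and late cornified envelope (Lce) proteins, and the fused S100-type proteins such as filaggrin, repetin and trichohyalin. These proteins are cross-linked beneath the membrane of dying keratinocytes and give the skin its barrier. p63 is the transcription factor that maintains stratified epithelia, and in keratinocytes it is known to act on the complex through chromatin regulators, among them Satb1 and Brg1, as well as on single genes.

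Taking both lists together, p63 peaks lay around the S100 genes of the lower end and beside Pglyrp4, and then from Pglyrp3 to the upper end, with an empty stretch between. An alphaKO peak without a WT partner also lay in Ints3, at 90421780 with a fold of 9.97. As Ints3 is not a member, 44 of the 45 alphaKO peaks were assigned to members. No peak of either list fell in the 1.26 Mb between summits at 90751458 and 92013304, which is 39.4% of the window and holds 3 members, S100a7l2, Gm36323 and Gm35185. The next longest stretch without a peak in either list, 205 kb, covered 12 Lce1 genes, from Lce1a1 to Lce1k. In the WT list the stretch without a peak ran on to 273 kb and 15 genes, from Lce1a1 to 2310050C09Rik. Stretches without a peak were not measured outside the window, so these lengths have no background beside them. Whether reads can be told apart among the Lce1 genes was not examined.

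**Figure D1:**
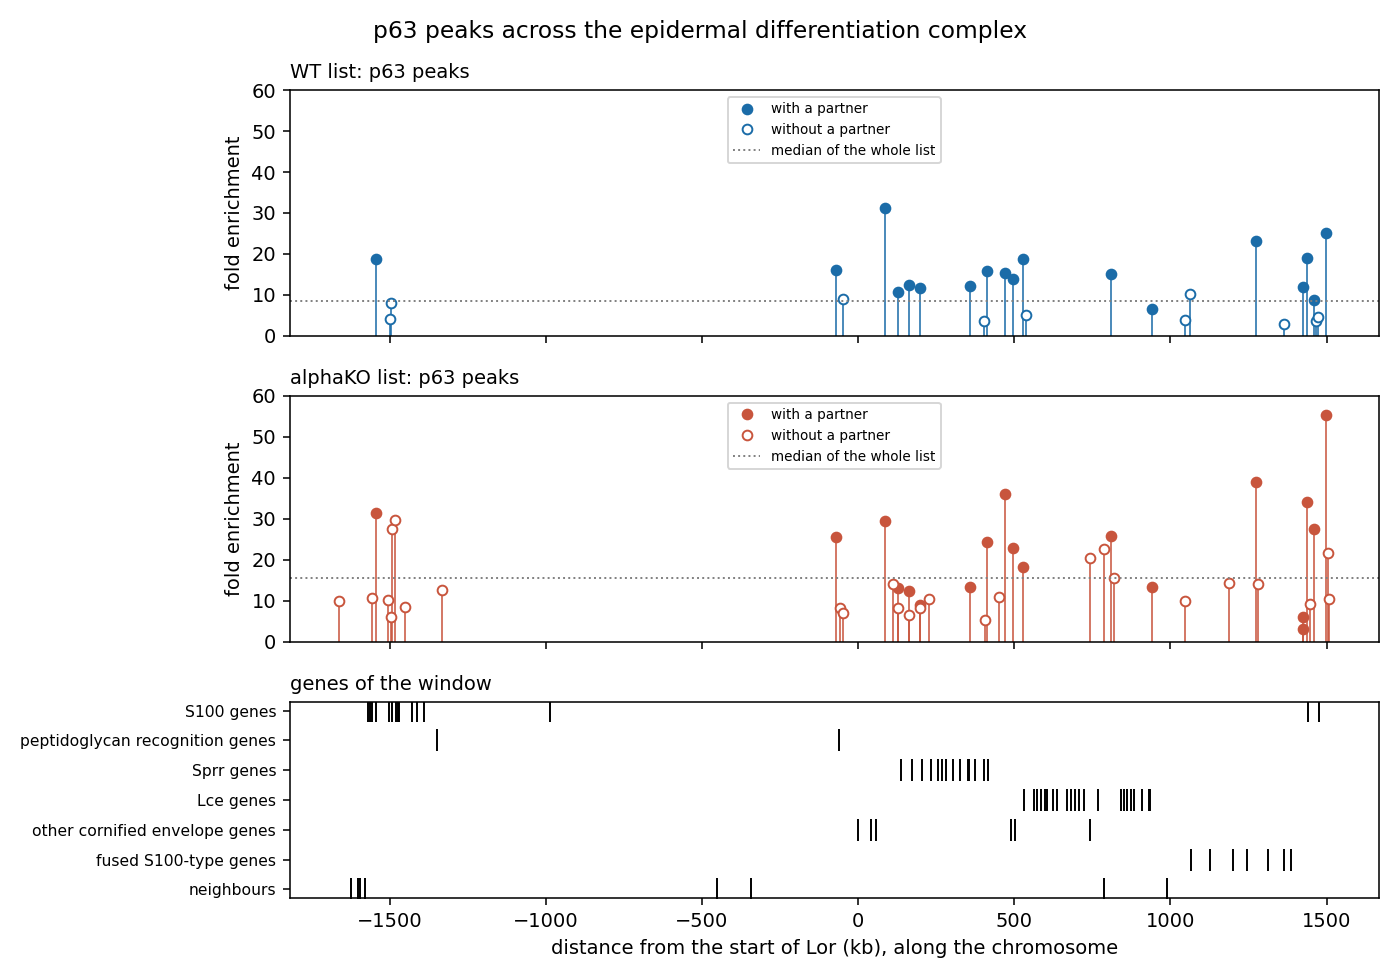
Fold enrichment of each p63 peak (y axis) against the distance of its summit from the start of Lor in kb (x axis), for the WT list (28 peaks) and the alphaKO list (45 peaks), with the genes of each family marked below. Filled circles share at least 1 bp with a peak of the other list and open circles do not. Peaks stand around the lower S100 genes and beside Pglyrp4, and from Pglyrp3 onward, with none across the 1.26 Mb between. An alphaKO peak at the lower edge lies in Ints3, which is not a member.

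Peaks were dense per length of chromosome and not per gene. The window held 8.75 WT peaks and 14.1 alphaKO peaks per Mb, beside 3.94 and 5.42 over all chromosomes, or 2.22 and 2.59 times as many. Counted per protein-coding gene, the window stood at 0.780 times (WT) and 0.912 times (alphaKO) the value of all chromosomes, since its genes lay at 23.1 per Mb beside 8.13. Of 829 non-overlapping stretches of 3.2 Mb laid along the chromosomes, 68 held more WT peaks than the window and 19 held more alphaKO peaks. The keratin and Serpinb gene clusters set beside the window, each bounded by its first and last gene, were denser or sparser. The window has fixed bounds and includes the empty 1.26 Mb, 39.4% of its length, so its densities and theirs are not on like bounds. The type II keratin cluster had 24.9 WT and 20.5 alphaKO peaks per Mb, the type I keratin cluster 21.2 in each list, and the Serpinb cluster of chromosome 1 had 13.4 and 10.7, while the Serpinb cluster of chromosome 13 had 0.862 and 4.31.

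A minority of members had a peak nearby in each list. Marked genes are those with a summit inside them or at most 10 kb outside. By this rule 21 of the 74 members (28.4%) were marked in WT, beside 26.4% of all protein-coding genes, and 26 (35.1%) in alphaKO, beside 30.6%. Of these, 18 were marked in both lists (20.3% of all genes were), 3 in WT alone (6.01% of all) and 8 in alphaKO alone (10.3% of all), and 45 in neither. At this distance the shares were near those of all genes. With 50 kb in place of 10 kb, 47 members (63.5%) were marked in WT, beside 47.1% of all genes, and 58 (78.4%) in alphaKO, beside 55.1%. Peaks per Mb are also higher in the window than over all chromosomes, as given above, and the part of this in the shares at 50 kb was not tested.

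The families differed in how many of their genes were marked. Of 14 Sprr genes, 7 were marked in WT and 8 in alphaKO, and of 15 S100 genes 6 and 8. Of 22 Lce genes, 3 were marked, the same 3 in both lists. Of 7 fused S100-type genes, 2 were marked in WT and 1 in alphaKO, with none in both. Of the 6 genes grouped as other cornified envelope genes, 2 were marked in WT, Ivl and Smcp, through the same peak. These and Kprp were the 3 marked in alphaKO. Smcp is not a known envelope gene and stands here only by the grouping used. Of the 2 peptidoglycan recognition genes, 1 was marked in WT and 2 in alphaKO. The other 8 members were called neighbours because their symbols fit no family, which says nothing of their role in the epidermis. None of them was marked in WT and 1 in alphaKO, 2310050C09Rik, which lies between Lce1l and Lce3a. Neighbouring genes often shared a peak, so marked genes are not independent of each other.

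**Figure D2:**
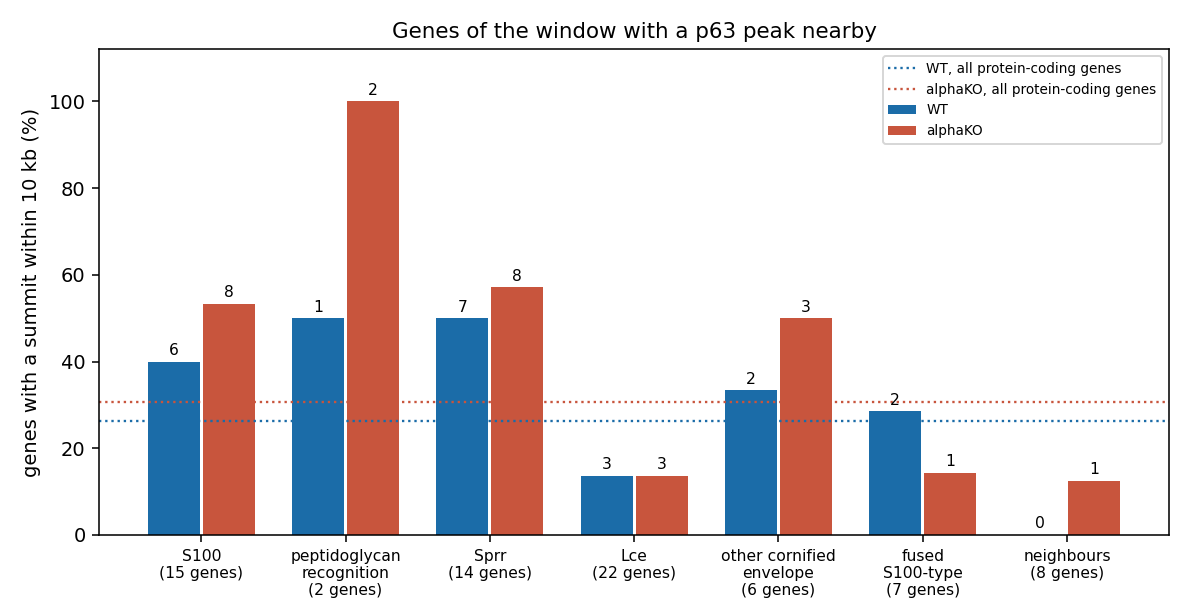
Percent of genes in each family with a p63 summit in the gene or within 10 kb (y axis, bars from 0), in the WT and alphaKO lists, with the number of genes above each bar. Dotted lines give the share of all protein-coding genes, 26.4% in WT and 30.6% in alphaKO. The Sprr and S100 bars stand above those lines and the Lce bars, with 3 of 22 genes in each list, below them. The bars of the 2 peptidoglycan recognition genes and of the other cornified envelope group, which includes Smcp, also stand above them.

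Of the 28 WT peaks, 18 met an alphaKO peak by at least 1 bp (64.3%, 95% Wilson interval 45.8 to 79.3), beside 66.6% of all WT peaks. Of the 45 alphaKO peaks, 19 met a WT peak likewise (42.2%, 29.0 to 56.7), beside 48.4% of all alphaKO peaks. The intervals cover counting error only, and both hold the value of the whole list. At the 18 shared WT peaks the summits of the lists lay a median of 6.5 bp apart, and 17 pairs lay within 100 bp.

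By their medians, shared sites were the stronger ones in each list, although the ranges overlapped. The WT peaks with a partner had folds from 6.63 to 31.3 with a median of 15.2, and the 10 without had 2.89 to 10.1 with a median of 4.39. In the alphaKO list the 19 peaks with a partner had folds from 3.15 to 55.4 with a median of 24.3, and the 26 without had 5.27 to 29.8 with a median of 10.4. The same medians over the whole lists were 11.5 and 4.79 in WT and 21.0 and 12.8 in alphaKO. Within its own list the window's median fold, 11.8, stood at the percentile 67.2 in WT, and the median of 13.4 stood at 42.5 in alphaKO. The intervals of these percentiles overlapped each other, and each held the middle of its list. These medians therefore set the window apart from neither list. At the shared sites the percentile was higher in WT than in alphaKO for 14 of 18 peaks (77.8%), beside 59.1% of shared peaks genome-wide. The 14 include the sites upstream of Sprr2a1, Sprr2a2 and Sprr2a3, which reads may not tell apart. The lists differ in length, so these ranks show no change at any site.

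**Figure D3:**
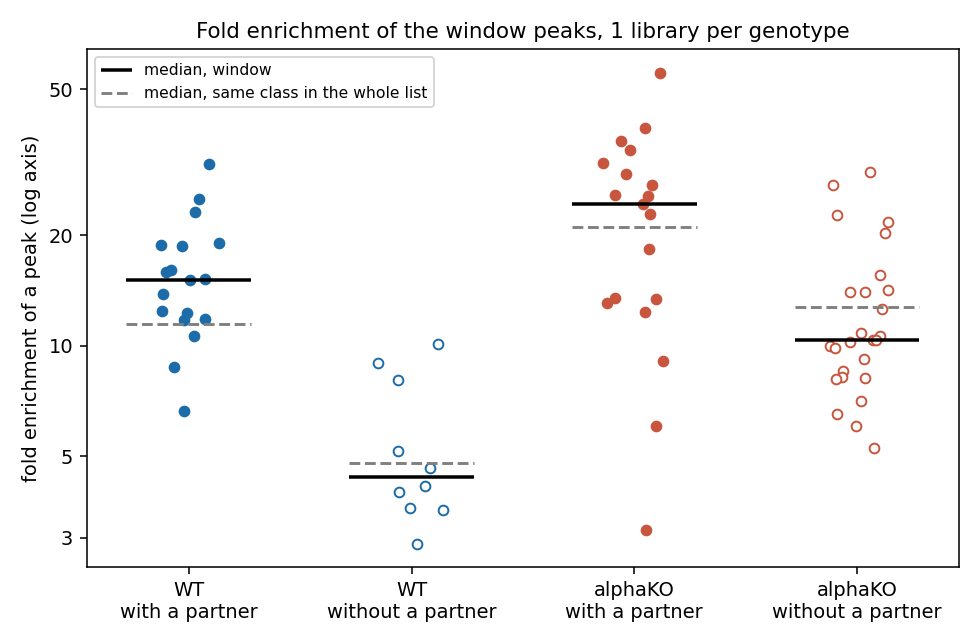
Fold enrichment on a log axis of every window peak, split by list and by whether the peak shares at least 1 bp with a peak of the other list. Black bars give the window median and dashed grey bars the median of the same class in the whole list. Peaks with a partner lie higher, with medians of 15.2 against 4.39 in WT and 24.3 against 10.4 in alphaKO.

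S100a11, which encodes a calcium-binding protein that is also found in the cornified envelope, had the one annotated promoter of the complex that met a peak in both lists. The summits lay 77 bp (WT) and 72 bp (alphaKO) upstream of its start at 93520496, with folds of 19.1 and 34.2. The peaks ran from 93520207 to 93521124 in WT and from 93520202 to 93520645 in alphaKO. At a second S100 start, that of an S100a3 transcript at 90588563, an alphaKO peak had its summit 108 bp upstream with a fold of 6.04. This was a weak peak, at or above 7.21% of the alphaKO list. 2310050C09Rik, a gene beside Lce1l, had an alphaKO summit 165 bp upstream of its start at 92870205 with a fold of 22.7. Crnn, which encodes cornulin, had a WT summit 45 bp past its start at 93144789 with a fold of 10.1. The last 3 peaks had no partner in the other list.

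The promoter sequences below, from 250 bases before the start to 50 bases from it on, are shown because a summit falls inside each of them. They were taken from RefSeq (GRCm38.p6, the assembly that mm10 names) and run 5′ to 3′ on the strand of the gene. Capitals mark matches to a loose form of the paired core of the p53 family site, CNNG followed by 6 bases of any kind and a second CNNG (N is any base). It was searched on both strands, where it reads the same, and matches may overlap each other.
S100a11 (chr3:93520246-93520545, plus strand): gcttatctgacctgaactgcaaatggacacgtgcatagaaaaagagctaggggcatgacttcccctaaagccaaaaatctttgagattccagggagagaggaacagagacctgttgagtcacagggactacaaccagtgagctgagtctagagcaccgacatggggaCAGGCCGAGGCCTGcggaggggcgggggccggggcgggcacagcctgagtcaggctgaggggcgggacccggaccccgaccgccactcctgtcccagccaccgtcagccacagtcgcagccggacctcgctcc
S100a3, start at 90588563 (chr3:90588313-90588612, plus strand): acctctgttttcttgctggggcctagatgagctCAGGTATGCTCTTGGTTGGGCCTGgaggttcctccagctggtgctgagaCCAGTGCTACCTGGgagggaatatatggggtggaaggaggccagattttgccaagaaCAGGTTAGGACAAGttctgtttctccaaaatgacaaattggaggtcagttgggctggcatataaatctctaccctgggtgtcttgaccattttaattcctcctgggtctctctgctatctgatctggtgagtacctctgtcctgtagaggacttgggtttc
2310050C09Rik (chr3:92870156-92870455, minus strand): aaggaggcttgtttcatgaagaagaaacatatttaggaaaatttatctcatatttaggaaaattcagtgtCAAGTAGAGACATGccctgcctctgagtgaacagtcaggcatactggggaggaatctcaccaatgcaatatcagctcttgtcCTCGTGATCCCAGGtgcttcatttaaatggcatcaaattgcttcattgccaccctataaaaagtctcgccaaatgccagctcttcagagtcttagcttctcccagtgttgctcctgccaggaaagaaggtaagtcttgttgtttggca
Crnn (chr3:93144539-93144838, plus strand): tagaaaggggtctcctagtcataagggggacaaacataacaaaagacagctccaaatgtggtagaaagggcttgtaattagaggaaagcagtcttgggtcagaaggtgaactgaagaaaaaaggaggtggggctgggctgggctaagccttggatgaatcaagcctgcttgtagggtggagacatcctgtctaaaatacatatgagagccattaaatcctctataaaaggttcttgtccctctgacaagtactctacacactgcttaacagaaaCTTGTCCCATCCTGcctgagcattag

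In each of these promoters the summit lay on or beside a match. Both S100a11 summits fell inside the match CAGGCCGAGGCCTG, which spans 83 to 70 bp upstream of the start. The S100a3 summit fell inside CAGGTTAGGACAAG, 111 to 98 bp upstream. The 2310050C09Rik summit lay 2 bp from CAAGTAGAGACATG, 180 to 167 bp upstream, and the Crnn summit 8 bp from CTTGTCCCATCCTG, 24 to 37 bp past the start. Over all annotated promoters, 414 of 824 WT summits (50.2%) and 278 of 372 alphaKO summits (74.7%) inside a promoter lay within 10 bp of a match, a distance chosen after the values were seen, and 19.2% of promoter bases lie that close. A match describes the letters and is not a shown binding site.

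The promoters of the complex held fewer of these matches than other promoters. Of the 70 promoters in the table for 65 members, 30 (42.9%) held such a match, beside 75.1% of all promoters. Their median GC content was 46.7%, beside 56.3% in all promoters, and its part in the difference was not tested. The stricter pair, with CATG in place of each CNNG, was in none of the 70 and in 0.701% of all. A WT peak overlapped 5 of the 70 promoters (7.14%), beside 6.93% of all, and an alphaKO peak 3 (4.29%), beside 3.16%.

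The S100 genes of the lower end carried a site shared by both lists and several listed in alphaKO alone. The shared site lay in S100a16 (90537880 to 90538451 in WT), 831 bp past the start of the gene, with folds of 18.9 in WT and 31.4 in alphaKO. In the alphaKO list, summits at 90592119 (27.5) and 90600576 (29.8) were the strongest of the complex without a WT partner. The first lay 0.611 kb outside S100a2 and the second 362 bp past an annotated start of S100a3. Both fall in the S100a3 gene model, which spans S100a2, so they cannot be given to one of these genes. The nearest WT summits were 5.08 kb and 13.5 kb away. The WT list had peaks of its own in S100a3, at 90585710 (4.14) and 90587038 (8.05), the latter 86 bp past another S100a3 start. These WT peaks and the alphaKO peak at 90588455 lie close together without overlap, with 1.42 kb between the nearer summits.

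S100a4 and S100a5 were counted as marked in alphaKO alone through that peak at 90600576, which lies 3.19 kb and 5.90 kb outside them. S100a13 was counted through a peak in S100a14 (10.6). S100a8 and S100a9, which encode the subunits of calprotectin, an alarmin of neutrophils and stressed keratinocytes, had no peak nearby: the nearest summits lay 82.0 kb and 106 kb away in WT and 38.1 kb and 55.7 kb away in alphaKO. S100a1, S100a6, S100a7a and S100a7l2 were also marked in neither list.

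At the upper end, S100a10 and S100a11 lay among the strongest sites of the complex. S100a10 encodes the partner of annexin A2. Between 16.4 kb and 27.6 kb beyond it lay the alphaKO summits at 93581063 (55.4), 93586494 (21.7) and 93592259 (10.4), of which the first met the WT peak at 93581084 (25.2). The fold of 55.4 was at or above 93.3% of the alphaKO list and the highest of the window there, and that of 25.2 was at or above 91.6% of the WT list. A further shared site lay 10968 bp (WT summit) from S100a10 on its other side, with folds of 8.79 in WT and 27.4 in alphaKO. The S100a10 gene itself was marked in WT alone, by weak peaks 6.76 kb outside it (3.62) and 11 bp inside its lower boundary (4.64). At a fold of at least 5 S100a10 and Tchh were no longer marked, and Crnn was the 1 gene left as marked in WT alone. About 13 kb before S100a11, a single wide WT peak of 1218 bp (11.8) met a pair of narrower alphaKO peaks (3.15 and 6.07).

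Of the Sprr genes, those of the Sprr2a group showed the same pattern of sites 3 times over. A shared site lay upstream of each of Sprr2a1, Sprr2a2 and Sprr2a3, at 3.61 kb, 3.73 kb and 3.59 kb from the start by the WT summits. Its folds were 10.6, 12.4 and 11.8 in WT and 13.1, 12.4 and 9.09 in alphaKO. A second site appeared in alphaKO alone at 5.61 kb, 5.71 kb and 5.57 kb from the same starts, with folds of 8.17, 6.53 and 8.13, and again 5.73 kb from the start of Sprr2b with a fold of 10.4. The remaining 6 Sprr2 genes with a start in the table had no summit within 7 kb upstream.

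The Sprr2a genes are close copies where their sequence could be compared, so reads may not tell their sites apart. This covers the promoter windows alone, and the sequence under the upstream sites was not analysed here. The promoter windows of Sprr2a1 and Sprr2a2 are 100% identical over 300 bases, and that of Sprr2a3 is 82.9% identical to them, whereas that of Sprr2b is 51.1% identical to that of Sprr2a1. Among the Sprr2 genes without an upstream summit, those of Sprr2d and Sprr2e are 89.1% identical and those of Sprr2h and Sprr2k 81.8%. The same limit on placing reads holds for these genes. The sources used here do not say how the authors placed reads that map to several copies. The peak caller's local background was 16.5 to 18.7 at the 3 WT sites, beside 5.20 to 13.5 at the other window peaks, and 6.78 to 18.9 at the 7 alphaKO sites, beside 4.27 to 9.21. Its part in these folds was not tested. With the sites upstream of Sprr2a2, Sprr2a3 and also Sprr2b left out, so that those at Sprr2a1 alone were counted, the window held 26 WT and 40 alphaKO peaks. Marked members were then 19 in WT and 23 in alphaKO, beside 21 and 26 with all sites.

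**Figure D4:**
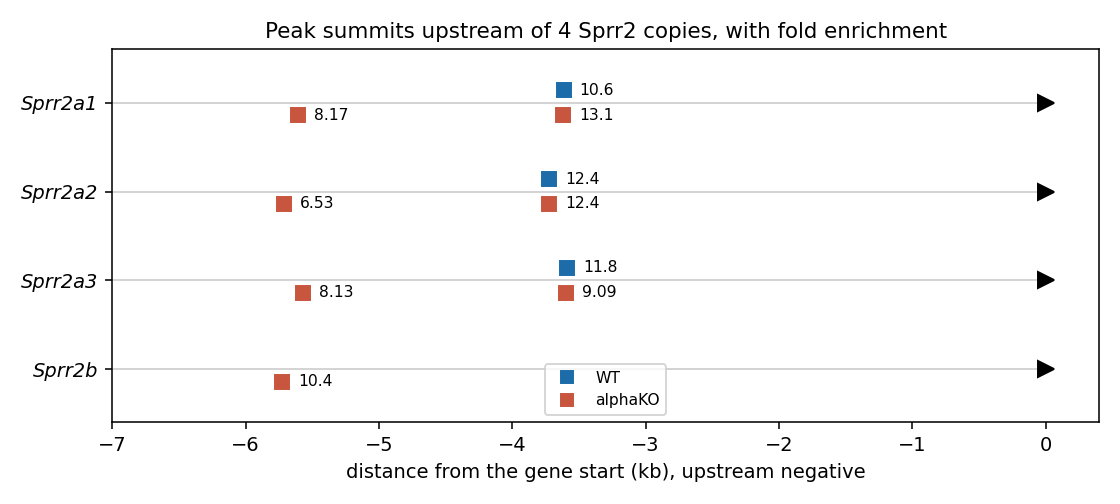
Positions of peak summits upstream of 4 Sprr2 genes (rows), as distance from each gene's start in kb (x axis), with each peak's fold enrichment printed beside it. Arrowheads mark the gene starts. WT and alphaKO summits coincide near 3.6 to 3.7 kb upstream of Sprr2a1, Sprr2a2 and Sprr2a3, and alphaKO summits alone stand near 5.6 to 5.7 kb upstream of these and of Sprr2b.

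Of the other Sprr genes, Sprr1b, Sprr1a and Sprr4 had peaks assigned to them. Sprr1b, which encodes a precursor of the envelope induced in differentiating keratinocytes, had a shared site 1.65 kb upstream of its start by the WT summit, with folds of 12.3 in WT and 13.5 in alphaKO. This peak also marked Sprr2k. A shared site between Sprr1a and Sprr4, 6.16 kb from Sprr4, reached 15.9 in WT and 24.3 in alphaKO. Sprr1a also had separate weak peaks in each list, 595 bp (WT, 3.58) and 4.59 kb (alphaKO, 5.27) upstream of its start. An alphaKO peak 32.1 kb from Sprr4 (10.8) had no WT partner. Sprr3 lay 16.1 kb from a summit in either list.

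Loricrin and involucrin, major proteins of the envelope, differed. Lor had no summit within 46 kb in either list, the nearest lying 46.1 kb (WT) and 47.0 kb (alphaKO) away. Ivl had a shared site on each side. The stronger lay 16.4 kb beyond its end (92554344 to 92554734 in WT), with folds of 15.2 in WT and 36.1 in alphaKO, and the other 5.98 kb upstream of its start by the WT summit, between Ivl and Smcp, with folds of 13.8 in WT and 22.8 in alphaKO. Kprp, which encodes a proline-rich protein of keratinocytes, held an alphaKO peak in its body (20.3) without a WT partner, and the nearest WT summit was 68.1 kb away. Lelp1, a late cornified envelope-like gene, was the nearest gene to the strongest WT site of the complex. This site lay 27.3 kb upstream of the Lelp1 start (92169806 to 92170323), with a fold of 31.3 that was at or above 94.9% of the WT list. The alphaKO peak there had a fold of 29.4, at or above 77.8% of its list.

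Pglyrp3, which encodes a peptidoglycan recognition protein, held a shared peak (16.1 in WT and 25.6 in alphaKO) at 92013115 to 92013484. Beyond its upper boundary the lists had separate peaks with summits 0.847 kb apart, at 92034130 in WT (8.96) and at 92033283 in alphaKO (7.07). An alphaKO peak in the gene (8.22) had no WT partner. Pglyrp4 was marked in alphaKO alone, by a peak 9.94 kb outside it (12.6).

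Most Lce genes lay far from any listed peak. Their sequences were not compared with each other, so a limit on placing reads, as for the Sprr2 genes, may hold here too. Lce6a held a shared peak 11.7 kb past its start (18.7 in WT and 18.3 in alphaKO) and, in WT alone, a weak peak 283 bp past its start (5.16). Lce1m and Crct1 shared a peak 6.51 kb from Lce1m, with folds of 6.63 in WT and 13.4 in alphaKO. No other Lce1 gene and no Lce3 gene was marked. Within the stretch between the Lce1 and Lce3 genes stood a shared site 24.0 kb from 2310050C09Rik (15.1 in WT and 25.8 in alphaKO) and an alphaKO peak 22.8 kb from Lce3a (15.6). The alphaKO peak at the start of 2310050C09Rik (22.7) had its nearest WT summit 23.8 kb away, at that shared site.

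The fused S100-type genes had a strong shared site and several weaker peaks of a single list. The shared site lay between Hrnr, which encodes hornerin, and Rptn, 23.9 kb from Hrnr and 36.3 kb upstream of the Rptn start, with folds of 23.1 in WT and 39.1 in alphaKO. It was at or above 90.0% of the WT list and 86.1% of the alphaKO list, and an alphaKO peak without a partner at 93362511 (fold 14.04) lay 5.08 kb from its WT summit. Flg, which encodes filaggrin, had an alphaKO peak 4.12 kb upstream of its start (14.2), and the nearest WT summit to that peak was 88.0 kb away. Flg2 had no summit within 48 kb in either list. Crnn was marked in WT alone by the peak at its start (10.1), the highest fold among the 10 WT peaks without a partner. About 16 kb upstream of Crnn, a WT (4.00) and an alphaKO peak (9.88) lay 1.03 kb apart. Tchh, which encodes trichohyalin of the inner root sheath and hair medulla, held a WT peak of low fold in its body (2.89), a fold at or above 3.19% of the WT list. Rptn, Hrnr and Tchhl1 had no peak within 10 kb.

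Near gene starts the complex showed shares above those of the lists in both genotypes, on few peaks. A summit lay within 1 kb of an annotated start for 6 of 28 WT peaks (21.4%, 95% Wilson interval 10.2 to 39.5), beside 15.4% of WT peaks on chromosomes with annotated starts. In alphaKO it was 5 of 45 (11.1%, 4.84 to 23.5), beside 6.56%. Both values of the whole lists lie within these intervals. Genes are denser in the window than over all chromosomes, as given above, and the part of this in the shares was not tested. Members without a start in the table, such as S100a10, could not count here. Of the 6 WT peaks, 4 had no partner and lay at S100a3, Sprr1a, Lce6a and Crnn, while those at S100a16 and S100a11 were shared. Of the 5 alphaKO peaks, the same genes S100a16 and S100a11 held the shared ones, and those at S100a3 (2 peaks) and 2310050C09Rik had no partner.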

How the data were processed

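Peak lists of 2 p63 ChIP libraries (WT and alphaKO, 1 each) were used, and the 2 input libraries were not used here. The submitters' processing notes name mm10, Bowtie2 and MACS2 2.1.1.20160309. The sources used here do not give options, the control of each call or the handling of duplicate or multiply mapped reads. For each peak the authors deposited, per the file headers, its positions, the fragment coverage at its summit (pileup, a signal), a fold enrichment (a ratio to the local background), and −log10 of the p-value and of the q-value. Depth is unknown, as peak lists carry no read totals.

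The local background of a peak was taken as (pileup + 1) / fold − 1. Peaks of both lists were partners when they had 1 bp or more in common. The 95% intervals of shares are Wilson intervals and cover counting error alone. Peaks were assigned to the gene that holds the summit (the shortest where several do) or is nearest. Genes came from RefSeq (GRCm38.p6), and starts and strands from its promoter table, which matched 65 of the 74 members; promoters of Kprp, S100a10 and others were not analysed here. Promoter identity came from a global alignment with Biopython 1.88. The genes named are those to which a peak was assigned, with the best known members of each family. Members and families were chosen with earlier results of these data known. Stricter thresholds, other overlap rules, other distances and equal list lengths were tried, and counting repeated Sprr2 sites once and adding Ints3 were alternatives chosen after seeing the data. Scripts were tested on simulated data and ran in Python 3.11.15 with pandas 2.3.3, NumPy 2.4.6, SciPy 1.17.1 and, for figures, matplotlib 3.10.9.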

Additional observations from a re-analysis of the deposited data

How the results depend on the processing

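No paired analysis was possible because each genotype had 1 library, and no library could be left out. Of 70 values under alternatives, 61 stayed within 1.5 times of a count or ratio or within the interval of a share or percentile. The density of peaks against all chromosomes turned from 2.22 (WT) and 2.59 (alphaKO) times per Mb to 0.780 and 0.912 times per gene, because genes are dense in the window. With genes counted within 50 kb, 47 members were marked in WT, 58 in alphaKO, 45 in both and 13 in alphaKO alone. The shares of all genes marked in both and in alphaKO alone were not computed at this distance. At a fold of at least 5, the share of WT peaks with a partner was 81.8%, since weak WT peaks were removed, and 1 gene, Crnn, was marked in WT alone. The share of the whole WT list with a partner was not computed at this threshold, so 81.8% has no background beside it. When each peak counted for its nearest gene alone, 1 gene was also marked in WT alone, but a different one, Tchh. Depth is unknown, so a site absent from a list may lie under that list's threshold.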
